A study of Mus musculus with 12 samples.

Results

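The genes described here are 10 immediate-early nuclear factors measured in liver macrophages: Fos, Fosb, Jun, Junb, Jund, Egr1, Egr2, Egr3, Atf3 and Ier2. They were chosen by name from the 25700 genes of a bulk RNA sequencing count table, and all 10 were among the 13844 genes with enough counts to be tested. The series' title concerns erythrophagocytosis, the engulfing of red cells, as a driver of an anti-inflammatory programme in these cells. The 12 libraries form 4 groups of 3: sph/sph mice given anti-CD40, wild-type (WT) littermates given anti-CD40, sph/sph mice given saline and WT littermates given saline. The sph/sph mice are homozygous for the sph allele, which makes red cells fragile and causes lasting haemolysis. Anti-CD40 was an agonistic antibody injected into the abdomen at 20 mg/kg, with cells taken 30 h later, and the mice were males of 8 to 10 weeks per the labels. In the count table the control mice are named heterozygous, whereas the labels say wild type; they are called WT here.

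Immediate-early genes are the first that a cell transcribes after a stimulus, without new protein synthesis, through kinases that act on factors already bound at their promoters, and most of their transcripts decay quickly. FOS and JUN proteins pair through leucine zippers to form AP-1, whereas EGR proteins bind DNA as single zinc-finger factors. In macrophages these factors are induced by growth factors, microbial products and stress, and they are also known to be induced when tissue is digested into single cells. Every liver in the study was perfused with collagenase, dispersed and passed over magnetic beads that bind F4/80 (Adgre1), which mouse macrophages carry on their surface. Handling is thus shared by all 4 groups, and its part in any level or difference below was not tested.

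Promoters of members called for the response in WT mice are shown because genes of this kind are known to be induced through short sites close to the start. RefSeq start sites of build GRCm38.p6 gave promoter windows for 7 of the 10 genes, not Egr1, Egr3 and Ier2. The 250 bases before the start are printed 5′ to 3′ along the gene's strand for 2 genes that were lower in anti-CD40 than in saline WT libraries (Fos and Fosb) and 3 that were higher (Jun, Egr2 and Atf3). Egr2 has 5 start sites in the table and the window of the third, picked after its matches were seen, is printed. Capitals mark matches to 7 motifs searched on both strands. These were the core of a cyclic AMP response element, TGACGT; the binding sequence of AP-1 itself, TGANTCA, and its variant in the Jun promoter, TGACATCA; the sequence that EGR proteins bind, GCGNGGGCG; the TATA box, TATAAA; the CArG box of the serum response factor; and the NF-kB decamer.
Fos (chr12:85473640-85473889, plus strand): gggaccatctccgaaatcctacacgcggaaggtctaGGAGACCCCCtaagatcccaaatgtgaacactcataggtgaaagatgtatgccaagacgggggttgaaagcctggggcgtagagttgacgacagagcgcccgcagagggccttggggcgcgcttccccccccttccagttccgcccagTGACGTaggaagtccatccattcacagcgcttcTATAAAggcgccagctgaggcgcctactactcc
Fosb (chr7:19310046-19310295, minus strand): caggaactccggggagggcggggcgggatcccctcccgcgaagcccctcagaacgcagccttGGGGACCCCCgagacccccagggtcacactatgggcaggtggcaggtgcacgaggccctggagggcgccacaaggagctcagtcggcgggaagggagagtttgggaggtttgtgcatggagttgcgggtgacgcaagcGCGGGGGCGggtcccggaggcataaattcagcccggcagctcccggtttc
Jun (chr4:95052223-95052472, minus strand): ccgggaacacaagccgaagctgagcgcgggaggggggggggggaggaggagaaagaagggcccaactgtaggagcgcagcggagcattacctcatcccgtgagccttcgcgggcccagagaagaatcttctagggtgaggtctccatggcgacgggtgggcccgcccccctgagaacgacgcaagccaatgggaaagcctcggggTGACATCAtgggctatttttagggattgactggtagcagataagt
Egr2 (chr10:67537619-67537868, plus strand): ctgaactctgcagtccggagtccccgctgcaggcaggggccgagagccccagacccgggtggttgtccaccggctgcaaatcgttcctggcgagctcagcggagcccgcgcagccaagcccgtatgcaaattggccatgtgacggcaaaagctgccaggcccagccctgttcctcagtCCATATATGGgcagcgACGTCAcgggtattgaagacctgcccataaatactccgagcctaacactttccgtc
Atf3 (chr1:191183334-191183583, minus strand): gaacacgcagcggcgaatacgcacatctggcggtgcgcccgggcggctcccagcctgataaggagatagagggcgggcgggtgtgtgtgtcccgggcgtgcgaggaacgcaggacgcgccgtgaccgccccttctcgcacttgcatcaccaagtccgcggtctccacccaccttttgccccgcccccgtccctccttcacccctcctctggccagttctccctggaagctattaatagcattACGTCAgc

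The Fos window held TGACGT from base -66 to base -61 and TATAAA from -33 to -28, counted from the start site, and the Atf3 window held ACGTCA, the same element on the other strand, from -8 to -3. Over all 32851 promoter windows of the table, which run from 250 bases before the start to 50 after it, 7.51% held TGACGT on either strand and 13.6% held TATAAA. The Jun window held TGACATCA from -45 to -38, a match found in 3.62% of all windows. The printed Egr2 window held a CArG box from -72 to -63, found in 1.63% of all windows, and ACGTCA from -56 to -51. The Fosb window held the EGR motif GCGGGGGCG from -50 to -42, found in 5.55% of all windows, and both FOS genes had a match to the NF-kB decamer, found in 8.46%. The window of the first Egr2 start, not printed, held a pair of overlapping NF-kB matches and neither a CArG box nor TGACGT. No TGANTCA match, found in 7.81% of all windows, lay in the 5 printed sequences. A match is a stretch of letters and not a measured binding site.

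Total counts per library ranged from 14991250 to 18984067. Counts of 4 Y-linked genes were 0 in library A of every group and between 2436 and 4055 in libraries B and C, although the labels describe males. The letters name columns within a group. In each treatment the A columns of both genotypes carry the same ID number, whose meaning is not given, and no other columns share one. Beads enrich macrophages but do not sort them: the summed level of 12 Kupffer cell markers was 28719 to 47997 CPM (counts scaled to a common library total) in sph/sph anti-CD40 and 663 to 1893 CPM in WT anti-CD40, against 44134 to 64169 CPM in sph/sph saline and 41095 to 49109 CPM in WT saline. No Kupffer marker was at 0 in any library. The 6 markers of macrophages in general summed to 8014 to 14569 CPM in sph/sph anti-CD40 and 7256 to 13954 CPM in WT anti-CD40. In saline they summed to 12240.5 to 16410.5 CPM in sph/sph and 15190.5 to 17377.5 CPM in WT. Their median log2 fold was -1.64 for anti-CD40 in WT mice and 1.20 for sph/sph over WT under anti-CD40, against 0.05 and 0.08 over all genes. The summed level of 12 T and NK cell markers was 83.8 to 253 CPM in sph/sph anti-CD40 and 839 to 2679 CPM in WT anti-CD40, against 22.5 CPM at most in the saline libraries. Markers of monocytes summed to 435 to 2030 CPM in sph/sph anti-CD40 and 1045 to 2599 CPM in WT anti-CD40, against 135 to 498 CPM in the saline libraries. Endothelial cell markers summed to 1139 to 2628 CPM in sph/sph anti-CD40 and 3137 to 6401 CPM in WT anti-CD40. In saline they summed to 1625 to 2891 CPM in sph/sph and 2562 to 4290 CPM in WT. Dendritic cell markers summed to 35.3 to 133 CPM in sph/sph anti-CD40 and 227 to 420 CPM in WT anti-CD40. They summed to 35.1 to 79.4 CPM in the saline libraries. The 8 erythroid markers summed to 450 to 910 CPM in sph/sph saline and 7.87 to 21.01 CPM in WT saline. After anti-CD40 they summed to 486 to 1167 CPM in sph/sph and 3.15 to 9.51 CPM in WT. All 8 were called higher in sph/sph by edgeR under saline and under anti-CD40. Adgre1, the gene of the bead target, had 1101 to 2237 CPM in sph/sph anti-CD40 and 39.8 to 173 CPM in WT anti-CD40, against 1430 to 1942 CPM in the saline libraries. The part of cell makeup in the values below was not tested, and in such bulk samples fewer cells of a type and less RNA per cell cannot be told apart.

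Fos and Fosb had their highest group means in WT saline and were lower after anti-CD40 in WT mice, whereas edgeR called neither for the response in sph/sph mice. Fos, the founding member of AP-1 (ENSMUSG00000021250, chromosome 12, 85473890 to 85477273, plus strand), had 42.8, 32.1 and 25.9 CPM in WT anti-CD40 libraries A, B and C, against 133, 201 and 80.2 CPM in WT saline libraries A, B and C. The groups did not overlap, and Fos fell by 2.04 on the log2 scale (SE 0.49, a 4.11-fold lower level; edgeR adjusted p = 0.00918). In sph/sph mice, Fos had 37.0, 78.5 and 23.6 CPM after anti-CD40 and 95.4, 74.3 and 42.0 CPM after saline. These groups overlapped, with a log2 fold of -0.61 ± 0.48 (SE; edgeR adjusted p = 0.484). Between genotypes, the log2 fold of Fos was -0.97 ± 0.48 under saline (sph/sph over WT; edgeR adjusted p = 0.431), where sph/sph library A lay above WT library C, and 0.46 ± 0.48 under anti-CD40 (edgeR adjusted p = 0.549).

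Fosb, a close relative of Fos that also pairs with JUN proteins (ENSMUSG00000003545, chromosome 7, 19302696 to 19310051, minus strand), was the only member called between the genotypes under saline. It had 5.39, 2.55 and 3.78 CPM in sph/sph saline libraries, against 11.9, 10.7 and 15.3 CPM in WT saline libraries. Every sph/sph saline library lay below every WT saline library, and Fosb fell by 1.69 on the log2 scale (SE 0.34, a 3.23-fold lower level; edgeR adjusted p = 0.0348). That call was lost when any 1 of 6 libraries was left out (WT saline A, B or C, sph/sph saline B or C, or WT anti-CD40 C), with log2 folds from -1.82 to -1.46 and adjusted p from 0.0533 to 0.143. WT anti-CD40 libraries had 3.66, 2.31 and 3.20 CPM of Fosb, all below the WT saline libraries (log2 fold -2.05 ± 0.35, SE; edgeR adjusted p = 0.00148), and this call held under all 19 alternative settings. Sph/sph anti-CD40 libraries had 2.49, 1.55 and 1.51 CPM, which is below all 3 sph/sph saline libraries, and the log2 fold of -1.08 ± 0.35 (SE) did not pass (edgeR adjusted p = 0.131). DESeq2 called that difference (adjusted p = 0.0363).

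**Figure D1:**
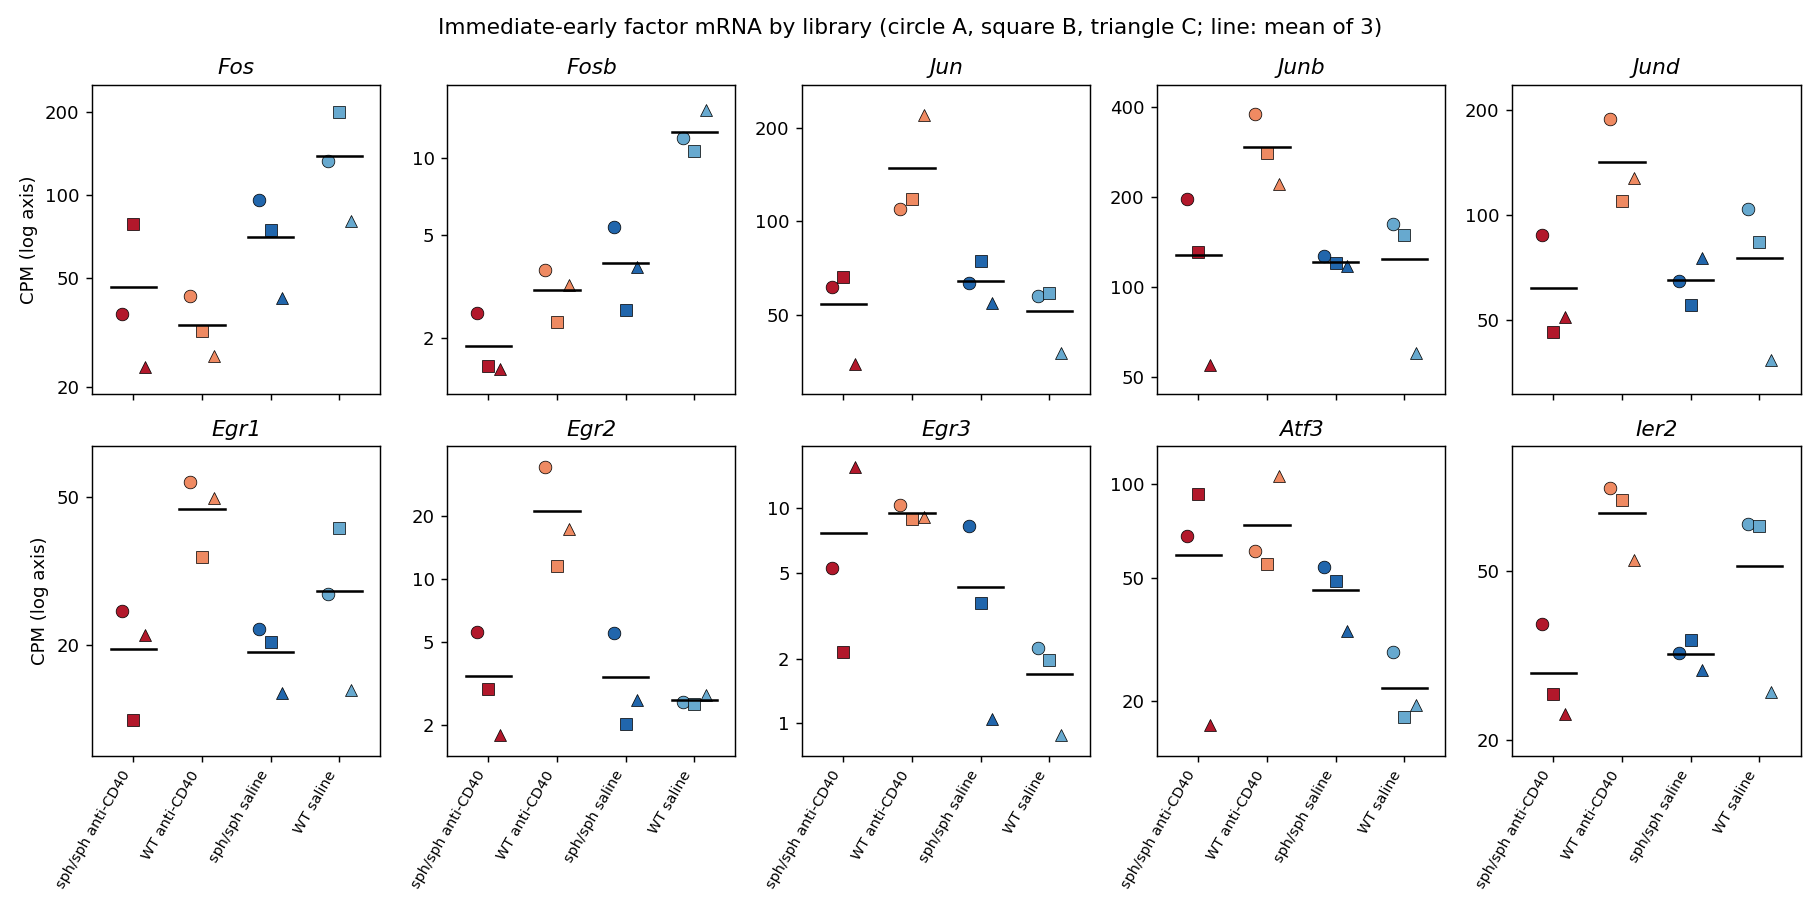
Level of each of the 10 genes in CPM (log axis) in the 12 libraries, with circles for library A, squares for B, triangles for C and a line at the mean of 3. WT anti-CD40 has the highest mean of the 4 groups for the 8 genes other than Fos and Fosb, with Egr2 at 11.5 to 34.7 CPM there and 1.78 to 5.60 CPM in the other groups, whereas Fos and Fosb are highest in WT saline.

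Jun rose with anti-CD40 in WT mice, Junb and Jund were highest on average in the same group, and none of the 3 was called for the response in sph/sph mice. Jun, the partner of FOS in classical AP-1 (ENSMUSG00000052684, chromosome 4, 95049034 to 95052222, minus strand), had 61.4, 66.0 and 34.7 CPM in sph/sph anti-CD40 libraries and 109.5, 118 and 219.9 CPM in WT anti-CD40 libraries. Its saline levels were 63.5, 74.4 and 54.8 CPM in sph/sph libraries and 57.6, 58.6 and 37.7 CPM in WT libraries. Every WT anti-CD40 library lay above all 9 others. Jun rose by 1.54 ± 0.33 on the log2 scale (SE) with anti-CD40 in WT mice (a 2.90-fold higher level; edgeR adjusted p = 0.00487), and under anti-CD40 it fell by 1.46 in sph/sph against WT (SE 0.33, 2.76-fold lower; edgeR adjusted p = 0.0128). The response in sph/sph mice was -0.25 ± 0.32 (log2 fold, SE; edgeR adjusted p = 0.688).

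The highest Jun level, in WT anti-CD40 library C, came with the highest heat shock level: the summed level of 14 heat shock genes was 8251, 5563 and 13250 CPM in WT anti-CD40 libraries A, B and C, against 3627 to 4088 CPM in WT saline. The part of heat shock in the Jun level was not tested. Without library C, Jun had a log2 fold of 1.11 for the response in WT mice (edgeR adjusted p = 0.0187) and of -1.06 for sph/sph against WT under anti-CD40 (edgeR adjusted p = 0.0487), both still called. The difference between the 2 responses of Jun, that of sph/sph minus that of WT, was -1.79 ± 0.45 (log2, SE) and missed the threshold (edgeR adjusted p = 0.0560). DESeq2 called it (adjusted p = 0.00547), as did edgeR without WT anti-CD40 library A (adjusted p = 0.0345). Jun shares 232 exon bases with the antisense gene Junos, and the strand setting of the authors' counting is not given, so part of its count is uncertain.

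Junb and Jund are JUN proteins that activate many AP-1 targets more weakly than Jun does. Junb (ENSMUSG00000052837, chromosome 8, 84974484 to 84978718, minus strand) had 198, 131 and 54.8 CPM in sph/sph anti-CD40 libraries and 380, 282 and 222 CPM in WT anti-CD40 libraries, against 127, 121 and 118 CPM in sph/sph saline and 162, 149.98 and 60.3 CPM in WT saline. All 3 WT anti-CD40 libraries were above all 9 others. The response in WT mice was 1.25 ± 0.46 (log2 fold, SE) and just missed the threshold in edgeR (adjusted p = 0.0529), while DESeq2 called it (adjusted p = 0.0222). It was called in 5 of 19 alternative settings. The others were edgeR with only the 6 libraries compared, with a term for the Y-linked counts, and without sph/sph anti-CD40 A or C (adjusted p = 0.0497, 0.0326, 0.0388 and 0.0185). Under anti-CD40, sph/sph against WT gave -1.20 ± 0.46 (log2 fold, SE; edgeR adjusted p = 0.100). Junb shares 173 exon bases with Prdx2 on the other strand, a gene with 1587 to 4908 counts per library beside 1016 to 5719 for Junb, so its count carries the same doubt about strand.

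Jund (ENSMUSG00000071076, chromosome 8, 70698949 to 70700616, plus strand) had 87.7, 46.4 and 51.0 CPM in sph/sph anti-CD40 libraries and 189, 110.3 and 128 CPM in WT anti-CD40 libraries. Saline levels were 65.0, 55.5 and 75.4 CPM in sph/sph and 104, 84.0 and 38.4 CPM in WT. Under anti-CD40 the genotypes did not overlap, and Jund fell by 1.21 on the log2 scale in sph/sph against WT (SE 0.37, a 2.31-fold lower level; edgeR adjusted p = 0.0491). That call was lost in 12 of 19 alternative settings: with limma-voom, with no filter on low counts, with only the 6 libraries compared, and without any 1 of 9 libraries (all but WT saline A, WT saline C and sph/sph anti-CD40 A), where adjusted p ran from 0.0630 to 0.142. The response in WT mice was 0.91 ± 0.37 (log2 fold, SE; edgeR adjusted p = 0.0733). It was called in 1 of 19 alternative settings, edgeR with a term for the Y-linked counts (adjusted p = 0.0307). The antisense gene Gm11175 covers 877 of the 1668 exon bases of Jund.

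Of the EGR genes, Egr2 and Egr3 rose with anti-CD40 in WT mice, and Egr1 and Egr2 were lower in sph/sph than in WT mice after anti-CD40. Egr2, a zinc-finger factor known for its role in macrophage and lymphocyte activation (ENSMUSG00000037868, chromosome 10, 67535475 to 67542188, plus strand), had 5.60, 2.96 and 1.78 CPM in sph/sph anti-CD40 libraries and 34.7, 11.5 and 17.4 CPM in WT anti-CD40 libraries. Saline levels were 5.52, 2.02 and 2.62 CPM in sph/sph and 2.57, 2.53 and 2.77 CPM in WT. All 3 WT anti-CD40 libraries stood above all 9 others. Egr2 rose by 3.01 ± 0.56 on the log2 scale (SE) with anti-CD40 in WT mice, an 8.06-fold higher level (edgeR adjusted p = 0.00240), and fell by 2.62 in sph/sph against WT under anti-CD40 (SE 0.55, 6.16-fold lower; edgeR adjusted p = 0.00965). In sph/sph mice the response was 0.02 ± 0.53 (log2 fold, SE; edgeR adjusted p = 0.986).

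The difference between the 2 responses of Egr2 was -2.99 ± 0.76 (log2, SE), which missed the threshold in edgeR (adjusted p = 0.0548). DESeq2 called it (adjusted p = 0.00280), as did edgeR with a term for the Y-linked counts (adjusted p = 0.0154) or without sph/sph anti-CD40 library A (adjusted p = 0.0330). Library A was also the highest of the WT anti-CD40 group; without it the response in WT mice was 2.46 (log2 fold) and still called.

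Egr1, the most studied EGR factor and a target of the serum response factor (ENSMUSG00000038418, chromosome 18, 34859823 to 34864984, plus strand), had 24.6, 12.6 and 21.3 CPM in sph/sph anti-CD40 libraries and 54.8, 34.5 and 49.6 CPM in WT anti-CD40 libraries. The genotypes did not overlap, and Egr1 fell by 1.25 on the log2 scale in sph/sph against WT (SE 0.37, 2.38-fold lower; edgeR adjusted p = 0.0412). That call was lost with only the 6 libraries compared and without any 1 of 8 libraries (all but WT saline B and C, sph/sph saline C and WT anti-CD40 B), with adjusted p from 0.0516 to 0.118. Saline libraries had 22.0, 20.4 and 14.8 CPM of Egr1 in sph/sph and 27.4, 41.4 and 15.1 CPM in WT. WT saline library B lay inside the range of the WT anti-CD40 libraries, and the response in WT mice was 0.73 ± 0.36 (log2 fold, SE; edgeR adjusted p = 0.135).

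Egr3, which is induced with Egr2 in activated lymphocytes (ENSMUSG00000033730, chromosome 14, 70077203 to 70082614, plus strand), had 5.25, 2.14 and 15.5 CPM in sph/sph anti-CD40 libraries and 10.4, 8.92 and 9.11 CPM in WT anti-CD40 libraries, against 8.25, 3.62 and 1.05 CPM in sph/sph saline and 2.25, 1.98 and 0.887 CPM in WT saline. The sph/sph libraries were widely spread, and the highest Egr3 level of all was sph/sph anti-CD40 C. On the TMM-scaled CPM that library was the lowest of the 12 in Fos, Fosb, Jun, Junb, Egr2, Atf3 and Ier2. For some of these genes the order depends on the scaling. Fosb had 28 of 16474784 counts there and 21 of 14991250 in sph/sph anti-CD40 B, and Ier2 had 426 and 347 counts in the same libraries. That library also stood apart in markers of other cells: 8 B cell markers summed to 2201 CPM there and to 64.4 to 357 CPM in the other libraries, and 6 megakaryocyte markers to 186 CPM there and to 11.7 to 59.0 CPM in the others. Their part in its Egr3 level was not tested. Egr3 rose by 2.47 ± 0.81 on the log2 scale (SE) with anti-CD40 in WT mice (5.54-fold; edgeR adjusted p = 0.0343). That call was lost without any 1 of the 6 WT libraries (adjusted p from 0.0634 to 0.110, log2 folds from 2.16 to 2.72). The log2 fold in sph/sph mice was 0.83 ± 0.77 (SE; edgeR adjusted p = 0.557) and turned to -0.22 without sph/sph anti-CD40 library C.

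Atf3, a stress-induced ATF factor that pairs with JUN proteins and is known to hold back inflammatory genes in macrophages (ENSMUSG00000026628, chromosome 1, 191170296 to 191218039, minus strand), had 68.1, 92.9 and 16.7 CPM in sph/sph anti-CD40 libraries and 60.8, 55.2 and 106 CPM in WT anti-CD40 libraries. Saline levels were 54.2, 48.7 and 33.7 CPM in sph/sph and 28.9, 17.8 and 19.5 CPM in WT. The lowest sph/sph saline library was above the highest WT saline library, and the log2 fold of 1.05 ± 0.51 (SE) did not pass (edgeR adjusted p = 0.430). With anti-CD40 in WT mice Atf3 rose by 1.75 ± 0.52 on the log2 scale (SE; 3.35-fold; edgeR adjusted p = 0.0239), a call lost without WT saline B, WT saline C or WT anti-CD40 C (adjusted p from 0.0772 to 0.0934). Under anti-CD40 the genotypes overlapped, with a log2 fold of -0.32 ± 0.51 (SE; edgeR adjusted p = 0.710).

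Ier2, a small nuclear protein induced with FOS and JUN (ENSMUSG00000053560, chromosome 8, 84661331 to 84662852, minus strand), had 37.5, 25.7 and 23.0 CPM in sph/sph anti-CD40 libraries and 78.5, 73.4 and 53.1 CPM in WT anti-CD40 libraries. The genotypes did not overlap, and Ier2 fell by 1.25 on the log2 scale in sph/sph against WT (SE 0.33, 2.38-fold lower; edgeR adjusted p = 0.0257). The call was lost without WT anti-CD40 A or B or without sph/sph anti-CD40 B or C (adjusted p from 0.0558 to 0.0798). Saline levels were 32.1, 34.4 and 29.1 CPM in sph/sph and 64.5, 63.8 and 25.9 CPM in WT. WT saline libraries A and B lay within the range of the WT anti-CD40 libraries, and the response in WT mice was 0.41 ± 0.32 (log2 fold, SE; edgeR adjusted p = 0.330).

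**Figure D2:**
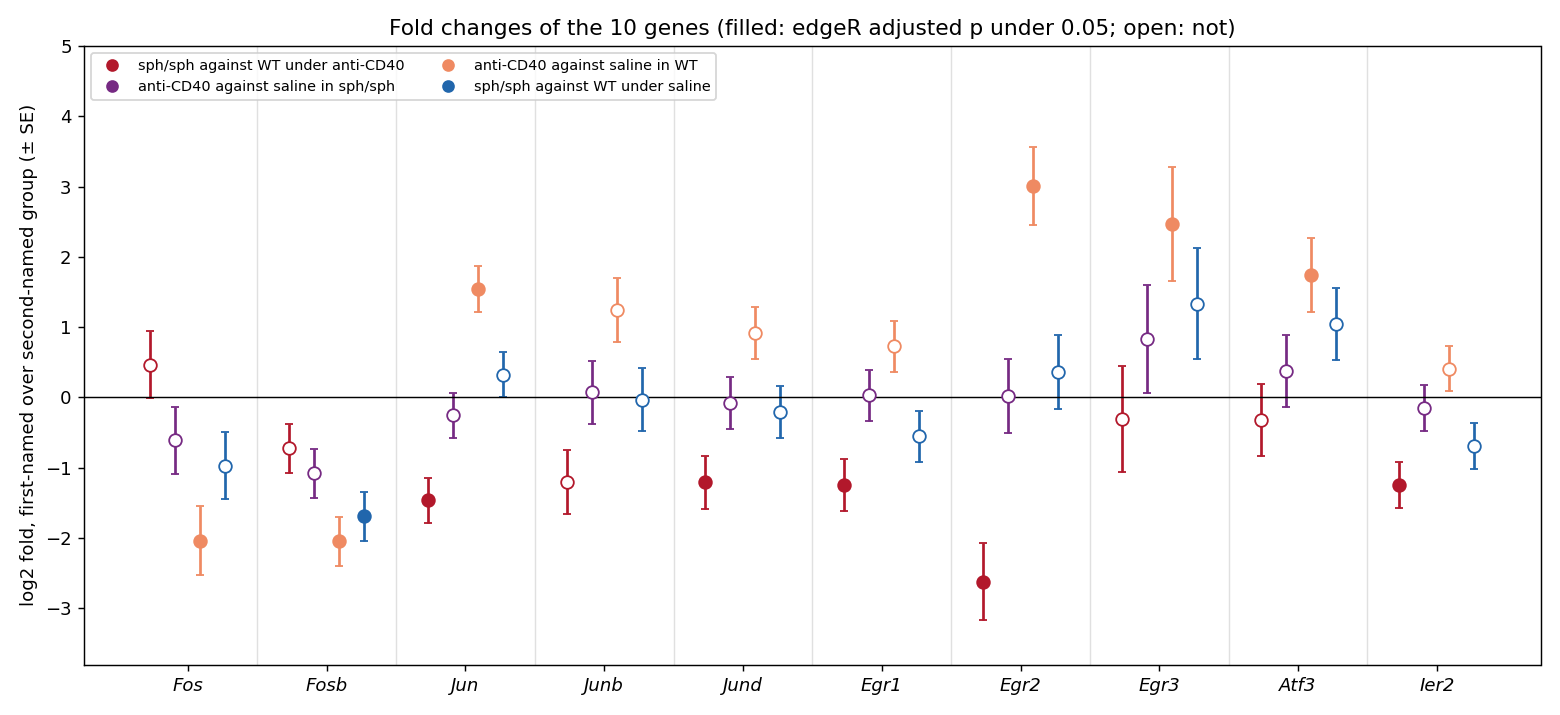
Log2 fold ± SE of each gene in 4 comparisons, first-named group over second-named group, filled where the edgeR adjusted p was under 0.05. In WT mice anti-CD40 lowered Fos and Fosb by about the same amount (-2.04 and -2.05) while Egr2 stood at 3.01; the folds of the response in sph/sph mice lie between -1.08 and 0.83 and none is filled.

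Counted over the members, the response to anti-CD40 in WT mice gave 4 genes higher (Jun, Egr2, Egr3 and Atf3) and 2 lower (Fos and Fosb) of 10. Among all 13844 genes tested, 19.4% were called higher and 19.7% lower in that comparison. The groups did not overlap for 8 of the 10 members, against 57.3% of all genes, and the median log2 fold was 1.08 for the members and 0.05 for all genes. In sph/sph mice the response called 0 of 10 members in edgeR, where 0.578% of all genes were called higher and 0.202% lower. Those shares rest on single libraries: 1382 genes were called higher and 990 lower without sph/sph anti-CD40 C, 1 and 0 without sph/sph anti-CD40 A, 16 and 1 without sph/sph anti-CD40 B, and 0 without any 1 sph/sph saline library. No omission of 1 library called a member in that response. At an unadjusted p under 0.05 edgeR gave 1 member (Fosb), DESeq2 called 1 and limma-voom 0. Of all 13844 genes, 2901 were at that p in edgeR. DESeq2 called 726 of all genes higher and 646 lower, and limma-voom 31 and 33. The groups did not overlap for 1 member, against 21.7% of all genes, and the median log2 fold was -0.03 for the members and 0.04 for all genes.

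Between genotypes under anti-CD40, 0 members were called higher and 5 lower in sph/sph (Jun, Jund, Egr1, Egr2 and Ier2), where 11.5% of all genes were called higher and 6.19% lower. All 6 members whose groups did not overlap (these 5 and Junb) were lower in sph/sph, and 28.4% of all genes did not overlap in either direction. The median log2 fold was -1.21 for the members and 0.08 for all genes. This comparison and the response in WT mice share the 3 WT anti-CD40 libraries. Fitted on only the 6 libraries compared, 1 member remained called (Ier2), and Jun and Egr2 had adjusted p = 0.0752 and 0.0516 there. In that fit 494 of 13230 genes were called higher and 241 lower, against 1598 and 857 of 13844 in the main fit. Each of these 2 edgeR fits had 6 members at an unadjusted p under 0.05. Under saline, 0 members were called higher and 1 lower in sph/sph (Fosb), where 1.6% of all genes were called higher and 0.433% lower. The genotypes did not overlap under saline for 2 members (Fosb lower and Atf3 higher in sph/sph), against 31% of all genes, and the median log2 fold was -0.12 for the members and 0.01 for all genes.

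Whether the responses of the 2 genotypes differ was tested by the interaction term (sph/sph response minus WT response). In edgeR it called 0 of 10 members, where 3.18% of all genes were called higher and 1.12% lower. At an unadjusted p under 0.05 there were 2 (Jun and Egr2), which DESeq2 called and limma-voom did not. Of all 13844 genes tested, 2603 were at that p in edgeR. DESeq2 called 834 of all genes higher and 559 lower, and limma-voom 391 and 95. The interaction was negative for 8 members and positive for Fos (1.43 ± 0.67, log2, SE) and Fosb (0.97 ± 0.49), with a median of -1.09 for the members and 0.05 for all genes. In the main edgeR fit a difference between the 2 responses was thus not shown for any member at this depth and number of mice.

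Per transcript length, the mixture of AP-1 mRNAs differed between the groups. With levels as FPKM (CPM divided by exon length in kilobases), Fos made up 9.03%, 24.0% and 13.3% of the summed FPKM of Fos, Fosb, Jun, Junb and Jund in sph/sph anti-CD40 libraries and 5.48%, 5.70% and 4.34% in WT anti-CD40 libraries, against 26.1%, 22.4% and 13.5% in sph/sph saline and 27.0%, 38.6% and 34.9% in WT saline. Fosb made up 2.52% at most in any library. Junb took 31.5% to 49.4% in sph/sph anti-CD40 and 38.1% to 51.1% in WT anti-CD40, against 35.4% to 38.7% in sph/sph saline and 26.9% to 33.7% in WT saline. Junb had the largest share in all 3 WT anti-CD40 libraries, and Fos had it in 2 of the 3 WT saline libraries.

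The ratio of Fos to Jun, taken within a library on the FPKM scale, does not depend on how libraries are scaled. It was 0.816, 1.61 and 0.920 in sph/sph anti-CD40 libraries and 0.529, 0.370 and 0.160 in WT anti-CD40 libraries, against 2.04, 1.35 and 1.04 in sph/sph saline and 3.13, 4.64 and 2.88 in WT saline. No library of either WT group overlapped with the sph/sph group of the same treatment. The ratio was 11.0-fold lower with anti-CD40 in WT mice, 3.38-fold higher in the sph/sph than the WT libraries under anti-CD40 and 2.44-fold lower in sph/sph than in WT under saline, each with p = 0.1 in a two-sided exact permutation test, which is the smallest value that 3 against 3 libraries allow. In sph/sph mice the ratio was 1.33-fold lower with anti-CD40, and the groups overlapped (two-sided exact permutation p = 0.4, over 8 such ratio comparisons in all). The Egr2 to Egr1 ratio on the FPKM scale was 0.300, 0.310 and 0.111 in sph/sph anti-CD40 libraries and 0.836, 0.442 and 0.462 in WT anti-CD40 libraries, again without overlap (two-sided exact permutation p = 0.1).

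**Figure D3:**
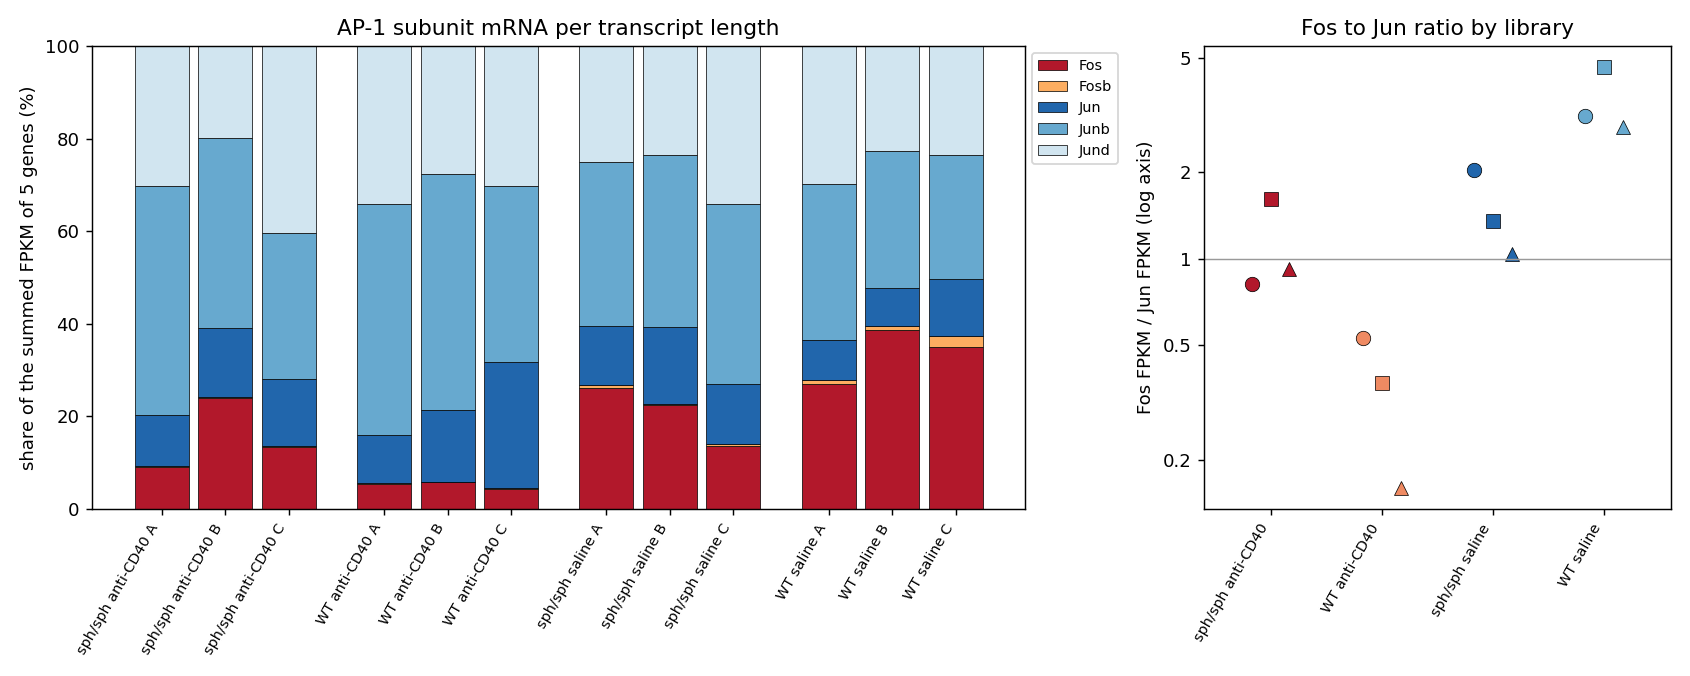
Left, share of 5 AP-1 genes in their summed FPKM in each of the 12 libraries (stacked to 100%); right, the ratio of Fos to Jun FPKM in each library (log axis). The Fos share is 4.34% to 5.70% in WT anti-CD40 and 27.0% to 38.6% in WT saline, and every Fos to Jun ratio in WT anti-CD40 (0.160 to 0.529) lies below every one in sph/sph anti-CD40 (0.816 to 1.61).

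Ordered by mean FPKM, Junb and Jund led in 3 groups. In sph/sph anti-CD40 Junb averaged 55.6 ± 31.1 and Jund 37.0 ± 13.6 FPKM (SD, n = 3), in WT anti-CD40 128 ± 34.7 and 85.4 ± 24.9 FPKM, and in sph/sph saline 52.9 ± 2.00 and 39.1 ± 5.97 FPKM. Fos led in WT saline with 58.7 ± 25.7 FPKM, ahead of Junb with 54.0 ± 24.2 FPKM, and the ranges of these neighbours overlapped. Fos averaged 19.7 ± 12.2 FPKM in sph/sph anti-CD40, below Atf3, and 14.3 ± 3.62 FPKM in WT anti-CD40, below all 3 JUN genes, Ier2 and Atf3, against 30.0 ± 11.4 FPKM in sph/sph saline. Fosb, Egr2 and Egr3 were the lowest 3 in every group, between 0.296 and 6.24 FPKM on average. Most neighbours in the order overlapped: the ranges were separate between Jun and Egr1 in both sph/sph groups, between Atf3 and Fos in WT anti-CD40 and between Egr1 and Fosb in WT saline, besides steps among the lowest 3 or above them and that of Junb over Jund in sph/sph saline.

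**Figure D4:**
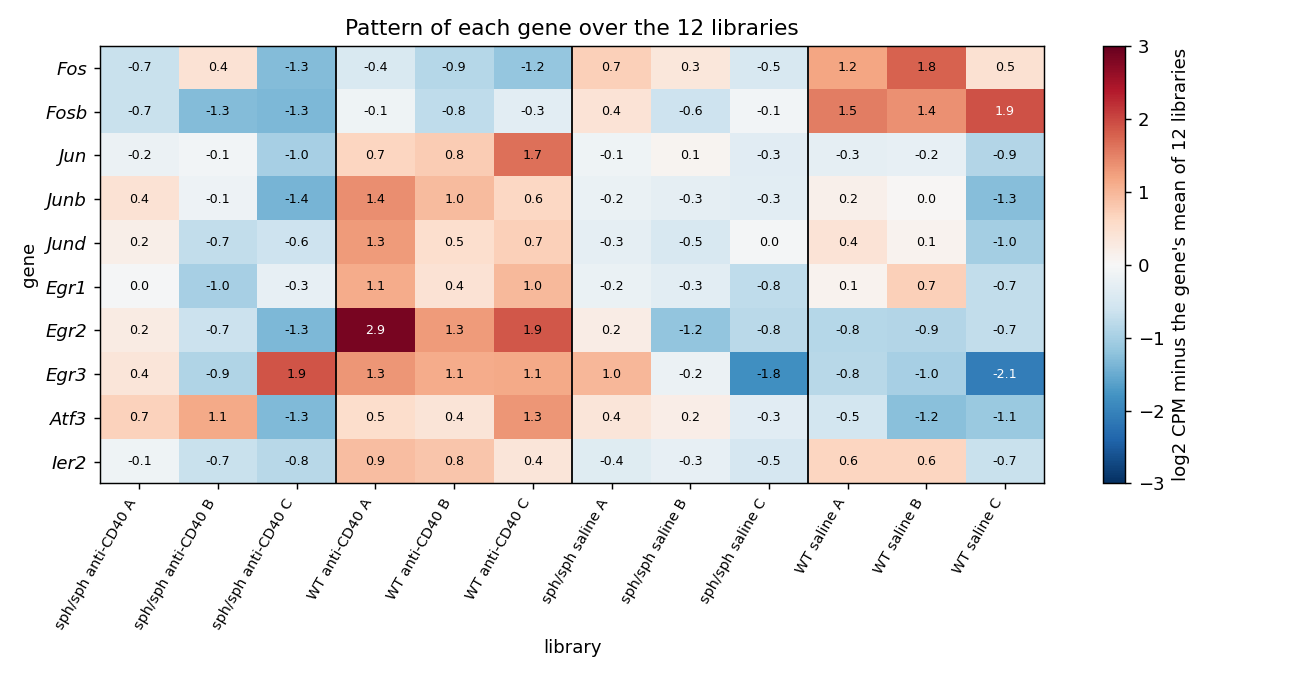
Log2 CPM of each gene minus its mean over the 12 libraries, by library. The WT anti-CD40 columns are above the mean for the 8 genes other than Fos and Fosb, and within groups library C of sph/sph anti-CD40 is low for most genes but 1.89 above the mean for Egr3.

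Every member varied more between mice of a group than the median gene. The pooled within-group SD of log2 CPM was 0.39 (Fosb) to 1.05 (Egr3) over the members, against a median of 0.34 over all genes tested. Members were not compared with genes of like level. Fosb, Egr2 and Egr3 averaged 2.05, 2.27 and 2.07 log2 CPM, below the median of 4.43 over all genes. Members tended to deviate together within a group. In WT saline library C, 8 of 10 members were below their group mean, with a median deviation of -0.72 on the log2 scale, while the median over all genes there was 0.02. In library A of every group, most members were above the group mean. Under anti-CD40 these were 8 of 10 in sph/sph (median 0.43) and 8 in WT (0.27). Under saline they were 9 in sph/sph (0.25) and 8 in WT (0.31). The A libraries are those with 0 Y-linked counts. A term for that split was among the alternative edgeR fits. With it, 5 members were at an unadjusted p under 0.05 for the interaction, against 2 in the main fit. The part of the split in these deviations was not tested. In sph/sph anti-CD40 library C, 8 of 10 were below the group mean, with a median of -0.43. In WT anti-CD40 library B, 9 of 10 were below the group mean, with a median of -0.30.

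Other genes of the same programme were read from lists. Of 12 other AP-1 family genes, 6 rose and 2 fell with anti-CD40 in WT mice, with a median log2 fold of 0.33 over the list and 0.05 over all genes. Over all genes tested, 19.4% were called higher and 19.7% lower in that response. Between genotypes under anti-CD40, 11.5% of all genes were called higher and 6.19% lower in sph/sph. Maff, a small MAF that pairs with FOS and CNC factors, rose to 65.8-fold its saline level (log2 fold 6.04 ± 0.75, SE; edgeR adjusted p = 2.7e-04), Fosl1 rose by 4.37 ± 1.33 (log2, SE; edgeR adjusted p = 0.0259), and Batf2, a BATF factor that pairs with JUN proteins, rose by 2.42 ± 0.55 (log2, SE; edgeR adjusted p = 0.00674). The Fosl1 call was lost without WT saline B or C or without WT anti-CD40 B or C (adjusted p up to 0.0955). Without WT saline B or WT anti-CD40 C 3 genes of the list rose, and without WT saline C or WT anti-CD40 B 4 did. The fall was called for 1 gene without WT saline A, B or C, any sph/sph saline library, WT anti-CD40 B or C, or sph/sph anti-CD40 B. In sph/sph mice 0 of 12 were called for the response in edgeR, with 3 at an unadjusted p under 0.05, 2 called by DESeq2 and 0 by limma-voom. Under anti-CD40, 0 of 12 were higher in sph/sph than in WT and 2 were lower: Maff (log2 fold -2.20 ± 0.62, SE; edgeR adjusted p = 0.0341) and Fosl2, an AP-1 subunit (-1.07 ± 0.24; edgeR adjusted p = 0.0133). Maff was not called without WT saline B, sph/sph saline A, WT anti-CD40 A or C, or sph/sph anti-CD40 A or B. Fosl2 was not called without WT anti-CD40 C. With only the 6 libraries compared neither gene was called. Over these settings the adjusted p reached 0.143 for Maff and 0.0999 for Fosl2.

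Of 32 other immediate-early genes, 13 rose and 3 fell with anti-CD40 in WT mice, 2 rose and 0 fell in sph/sph mice, and under anti-CD40 0 were higher and 8 lower in sph/sph than in WT. The shares of all genes called higher and lower were 19.4% and 19.7%, 0.578% and 0.202%, and 11.5% and 6.19% in these 3 comparisons. The median log2 fold over the list was 0.58 in WT mice and -0.01 in sph/sph mice for the response, and -0.72 for sph/sph over WT after anti-CD40, against 0.05, 0.04 and 0.08 over all genes. Dusp2, a nuclear phosphatase of MAP kinases, rose in both genotypes, by 2.97 ± 0.42 (log2, SE) in sph/sph (edgeR adjusted p = 0.0237) and by 3.89 ± 0.43 in WT (edgeR adjusted p = 1.49e-04). The sph/sph call was lost without any 1 of the sph/sph saline libraries or of sph/sph anti-CD40 A and B (adjusted p up to 0.180), as was that of Csrnp1, a nuclear protein that rose by 1.23 ± 0.18 in sph/sph (log2, SE; edgeR adjusted p = 0.0237). Both sph/sph calls were also lost with only the 6 libraries compared. Csrnp1 was lower in sph/sph than in WT under anti-CD40 under every alternative (log2 fold -2.09 ± 0.18, SE; edgeR adjusted p = 8.82e-05). Dusp5, another MAP kinase phosphatase, rose by 3.73 ± 0.39 (log2, SE) in WT mice (edgeR adjusted p = 1.02e-04), and Gadd45b, a stress response gene, by 3.05 ± 0.70 (edgeR adjusted p = 0.00696). Ier5l was 22.3-fold lower in sph/sph than in WT under anti-CD40 (log2 fold -4.48 ± 0.75, SE; edgeR adjusted p = 0.00302), and Gem, a small GTP-binding protein, had -3.04 ± 0.92 (edgeR adjusted p = 0.0457), a call lost in 11 of 19 alternative settings, among them the omission of WT saline B or C, sph/sph saline A or B, WT anti-CD40 B or C, or sph/sph anti-CD40 A or B. Under saline 0 of 32 were called between genotypes in edgeR, with 10 at an unadjusted p under 0.05, 2 called by DESeq2 and 0 by limma-voom. For the response in sph/sph mice, 7 rose and 1 fell without sph/sph anti-CD40 C, 0 were called without any other 1 of the sph/sph libraries, and DESeq2 called 5 higher and 2 lower. The interaction called 6 of the 32, all with the lower response in sph/sph, where 3.18% of all genes were called higher and 1.12% lower. That count ran from 2 to 7 over the alternatives. It was 2 without any 1 of the saline libraries, 3 with limma-voom and 4 with no filter on low counts or with the sex term.

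Of 17 kinases and serum response factor partners that act upstream of the members, 2 rose and 5 fell with anti-CD40 in WT mice (median log2 fold -0.08). Over all genes 19.4% were called higher and 19.7% lower there, so the list was called about as often as genes at large. In sph/sph mice edgeR called 0 of the 17, with 2 at an unadjusted p under 0.05 and 0 called by DESeq2 or limma-voom. Map2k1 (MEK1) rose by 1.19 ± 0.22 (log2, SE; edgeR adjusted p = 0.00266), while Map3k8 (TPL2, a kinase that relays CD40 and Toll-like receptor signals to ERK) fell by 1.31 (SE 0.21; edgeR adjusted p = 0.00120) and Mrtfa, a coactivator of the serum response factor, by 1.23 (SE 0.37; edgeR adjusted p = 0.0239), the last not called without WT saline A or B or WT anti-CD40 B or C (adjusted p up to 0.0827). Under anti-CD40, 3 of the 17 were higher in sph/sph than in WT (Map3k8, Mrtfb and Mapk14, log2 folds of 0.88, 0.85 and 0.75; edgeR adjusted p = 0.0181, 0.0227 and 0.0129) and 0 were lower. Without WT anti-CD40 B or sph/sph anti-CD40 B the calls of Map3k8 and Mrtfb were lost, and without WT anti-CD40 C those of Mrtfb and Mapk14. With only the 6 libraries compared all 3 calls were lost. In the main fit of that comparison 11.5% of all genes were called higher and 6.19% lower in sph/sph. Of Egr4, Nab1 and Nab2, the first had too few counts to be tested, and Nab1, a corepressor of EGR proteins, rose by 0.93 ± 0.19 (log2, SE) with anti-CD40 in WT mice (edgeR adjusted p = 0.00413). Neither Nab gene was called between genotypes by edgeR, DESeq2 or limma-voom with all 12 libraries, and without sph/sph anti-CD40 B edgeR called 1 of them lower in sph/sph under anti-CD40.

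Of 14 heat shock genes, 11 rose and 0 fell with anti-CD40 in WT mice, and 0 were called for the response in sph/sph mice (1 at an unadjusted p under 0.05, and 0 by DESeq2 or limma-voom). Over all genes 19.4% were called higher and 19.7% lower in WT mice, and 0.578% and 0.202% in sph/sph mice. Between genotypes under anti-CD40 the shares were 11.5% and 6.19%. Under anti-CD40, edgeR called only Hspb1 lower in sph/sph than in WT (log2 fold -4.95 ± 1.16, SE; edgeR adjusted p = 0.0164). DESeq2 called 6 lower there and limma-voom 0, with 8 at an unadjusted p under 0.05 in edgeR. The median log2 fold of that comparison was -0.88 over the list. The median log2 fold in WT mice was 1.52 over the list, in which limma-voom called 5 genes. Hspb1 (HSP25) rose furthest (log2 fold 5.61 ± 1.20, SE; edgeR adjusted p = 0.00525). Without WT anti-CD40 library C, 5 of the 14 rose in WT mice and Hspb1 was not called between genotypes (log2 fold -2.71, adjusted p = 0.0646), as it was not without sph/sph anti-CD40 A. Nor was Hspb1 called between genotypes by limma-voom or with only the 6 libraries compared (adjusted p up to 0.218). Its rise in WT mice was not called by limma-voom (adjusted p = 0.136). Hspa1b, an inducible HSP70, had 37.1, 10.3 and 538 CPM in WT anti-CD40 libraries A, B and C, against 13.3, 8.19 and 2.16 CPM in WT saline. Hspa1a, its near copy with which it may share reads, had 27.6, 5.46 and 249 CPM and 11.7, 8.74 and 1.22 CPM in the same groups. Library C alone was far above the saline libraries for this pair, and their rise in WT mice (log2 folds 4.63 ± 1.35 and 3.71 ± 1.27, SE; edgeR adjusted p = 0.0211 and 0.0406) was not called without it, without WT saline B or without WT saline C. Neither gene of the pair was called by limma-voom or with only the 6 libraries compared. Hspa1a was also not called without WT saline A, sph/sph saline A or C, or sph/sph anti-CD40 A (adjusted p up to 0.373).

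Genes whose pattern over the 12 libraries was most like that of a member were found by the root mean square (RMS) difference of log2 CPM after centring each gene on its own mean. Nearest to Fos was Dusp1, a phosphatase induced with it (RMS 0.38, where the pattern of Fos itself has a size of 0.92), with 175, 388 and 228 CPM in sph/sph anti-CD40 and 192, 119 and 104 CPM in WT anti-CD40, against 616, 326 and 193 CPM in sph/sph saline and 499, 724 and 382 CPM in WT saline. The next were Lhfpl4 (0.47) and Cdiptos (0.48). Among the genes near to Fosb were Slc12a8 (RMS 0.41), which averaged 1.62 CPM in sph/sph anti-CD40 and 2.82 CPM in WT anti-CD40, against 2.73 CPM in sph/sph saline and 8.79 CPM in WT saline, and Chst8 (0.45). Nearest to Jun was Bag3, a cochaperone of the heat shock list (RMS 0.25), which had 71.5, 52.7 and 174 CPM in WT anti-CD40 libraries, then Pak4 (0.27) and Il3ra (0.30).

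Egr1 was most like Prpf40b (RMS 0.34) and the members Ier2 (0.34) and Jund (0.34). Egr2 was most like Srgn, the proteoglycan serglycin (0.47), which averaged 275 CPM in sph/sph anti-CD40 and 1358 CPM in WT anti-CD40, against 173 CPM in sph/sph saline and 245 CPM in WT saline, then the annotated gene Gm44292 (0.48) and Bst2 (0.51). The genes nearest to Egr3 were Mgst2 (0.51), Ccdc116 (0.63) and Serpini1 (0.63), all with low counts. Atf3 was most like Gm4070 (0.32), Car13 (0.37) and Ppp1r15a (0.39), a phosphatase subunit of the integrated stress response. Ppp1r15a averaged 146 CPM in sph/sph anti-CD40 and 156 CPM in WT anti-CD40, against 91.4 CPM in sph/sph saline and 49.9 CPM in WT saline.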

How the data were processed

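Libraries of F4/80-enriched liver cells were read as raw counts per Ensembl gene, 1 column per library, as deposited by the authors. The authors worked on build GRCm38.p5 with STAR 2.7.0e, SAMtools 1.9 and featureCounts, per the submitters' processing notes; whether counting used strand or multiply matching reads is not given in the sources used here. The 12 were taken as separate mice, per the series' design text, and grouped by treatment and genotype from the labels. Symbols (25587 of 25700 genes), positions and exon lengths came from GENCODE M21 on GRCm38.

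Counts were tested in R 4.3.3 with edgeR 4.0.16 (TMM scaling, filter by group, robust quasi-likelihood, 1 fit of 12 libraries; common biological coefficient of variation 0.382), with Benjamini-Hochberg adjustment over 13844 genes and a call at an adjusted p under 0.05. The SE is the log2 fold over the root of the F statistic and is approximate. Log2 CPM used a prior count of 2. Alternatives were DESeq2 size factors, DESeq2 1.42.0, limma-voom 3.58.1, no filter, CPM of at least 1 in 3 libraries, only the 6 libraries compared, each library left out, and a sex term from Y-linked counts. The sex term was chosen after seeing the data and sets library A against B and C. Promoter sequences are RefSeq's. All 10 members are described; of each list, at most the 3 called genes with the largest log2 fold per comparison are named, and for 7 members the 3 genes nearest in pattern. The interaction of Csrnp1 and the levels of list genes were picked after their values were seen. Members, lists and tests were chosen with earlier results of these data known. The gene Ahsp, on the erythroid marker list, was not matched. A few other genes are not reported here.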

Additional observations from a re-analysis of the deposited data

Results flagged for a closer look

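No member passed the test of a difference between the responses of the 2 genotypes, but 5 of the genes named from the lists did: each is the log2 response to anti-CD40 in sph/sph mice minus that in WT mice, tested as the interaction in edgeR. Dusp5, the MAP kinase phosphatase, had -3.01 ± 0.51 (SE; edgeR adjusted p = 0.00994) and stayed called under all 18 alternatives. Csrnp1 had -1.56 ± 0.25 (edgeR adjusted p = 0.00836). Ier5l had -4.25 ± 0.97 (edgeR adjusted p = 0.0378), not called under 11 of 18 alternatives, and Pim1, a kinase, had -1.97 ± 0.48 (edgeR adjusted p = 0.0486), not called under 13. Map2k3, a kinase upstream of p38, had -0.75 ± 0.18 (edgeR adjusted p = 0.0424), not called under 12. Kupffer cell and T and NK cell markers also differed between the anti-CD40 groups, and their part in these differences was not tested.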

How the results depend on the processing

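The number of members called for the response in WT mice was 6, against 6 to 8 with other methods and 4 to 7 with 1 library left out, and the calls of Fos, Fosb, Jun and Egr2 held in all 19 alternatives. Between genotypes under anti-CD40 the count was 5, against 1 with only the 6 libraries compared and 2 to 5 with 1 library left out. Over all genes 494 were called higher and 241 lower there with only the 6 libraries, against 1598 and 857 in the main fit. Under saline the number of members called was 0 or 1 with 1 library left out. DESeq2 called 1 member for the response in sph/sph mice and 2 for the interaction, the sex term called 1 for the interaction, and leaving out 1 library gave 0 or 1 there. Over all genes DESeq2 called 726 higher and 646 lower for the response in sph/sph mice, where edgeR called 80 and 28. For the interaction DESeq2 called 834 higher and 559 lower, where edgeR called 440 and 155. The causes were not tested. In 12 combinations of member and comparison, none called, the log2 fold changed sign under some alternative, 29 times in all, to a value of at most 0.52 in size. By method, Junb changed under saline to 0.0916 (limma-voom) and 0.0204 (sex term), and in the sph/sph response to -0.0921 and -0.0254. Also in the sph/sph response Egr1 changed to -0.0054 (DESeq2 size factors) and -0.0055 (DESeq2), and Egr2 to -0.0144 with both and -0.019 with limma-voom. With 1 library left out, log2 folds in the sph/sph response ranged from -0.11 to 0.82 for Atf3, -0.17 to 0.26 for Egr1, -0.52 to 0.56 for Egr2, -0.22 to 1.71 for Egr3, -0.39 to 0.42 for Junb and -0.42 to 0.0856 for Jund. For sph/sph against WT they ranged under anti-CD40 from -0.80 to 0.13 for Atf3, -1.35 to 0.13 for Egr3 and -0.15 to 0.80 for Fos, and under saline from -0.18 to 0.63 for Egr2, -0.36 to 0.21 for Junb and -0.53 to 0.0935 for Jund. With 1 library left out, the count over all genes ran under saline from 61 to 383 higher and 12 to 156 lower, and for the interaction from 211 to 691 higher and 48 to 337 lower. No paired analysis was possible because the columns carry no replicate number, and the WT and sph/sph columns of each treatment share only 1 ID number.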
